A study of Saccharomyces cerevisiae with 56 samples.

Results

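The AAD genes of Saccharomyces cerevisiae are a family of 6 paralogous copies that lie near chromosome ends. They were taken by name: AAD3 on chromosome III, AAD4 on IV, AAD6 on VI, AAD10 on X, AAD14 on XIV and AAD15 on XV. The RefSeq annotation of the R64 assembly lists 6 genes named AAD, and all 6 have 1 probe each on the array, out of 6245 probes in all. That annotation calls AAD6 a pseudogene and the other 5 protein-coding. It places 1 gene between AAD3 or AAD15 and the chromosome end, 5 genes for AAD4 and AAD10, 6 for AAD14 and 10 for AAD6.

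The parents were 59A, a haploid MATa derivative of the industrial wine strain EC1118, and S288C, a MATalpha laboratory strain, and the 44 F1 segregants of their cross came from 26 asci with 2 complete tetrads. All strains fermented a synthetic grape must (pH 3.3, assimilable nitrogen 425 mg/L, with added p-aminobenzoic acid and iron(III) chloride). Cells were taken in the stationary phase, when 66 g/L of CO2 had been released and 70% of the fermentation was over. RNA was hybridized to 56 one-colour arrays on 7 slides: 3 technical arrays for each of 2 extracts of each parent and 1 array for each segregant. Each parent and each segregant is a single strain, and a segregant has no replicate of its own. The paper reports that some segregants carry an extra copy of part of the left arm of chromosome XVI. It also reports that many genes outside that part differed in expression in those segregants. The segregants were not divided by this extra copy here.

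The family is named for its resemblance to the aryl-alcohol dehydrogenase with which the lignin-degrading fungus Phanerochaete chrysosporium handles aromatic aldehydes and alcohols. The yeast proteins belong to the aldo-keto reductases, enzymes that use NADPH to turn an aldehyde into the alcohol. Such reductions also close the Ehrlich pathway, by which yeast makes fusel and aromatic alcohols from amino acids during wine fermentation. AAD4 and AAD6 are known as genes that respond to oxidants through the transcription factor Yap1. The copies sit in subtelomeric blocks that were duplicated together with other genes, and an AAD gene lies next to a THI5-family gene for thiamine precursor synthesis in 4 of the 6 blocks.

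Values are quantile-normalized log2 intensities, on which the study's methods put background at 5.3 and saturation at 16. A value below 6.3, which is 1 unit over background, is here read as not well above background, and such values have no order among themselves. Intensities of different probes are not comparable, so levels are compared for 1 gene across strains only. The paper reports that some genes are missing from EC1118. It adds that sequence changes which weaken binding to a probe can pass for local effects on expression. Whether each gene named here is present in 59A and matched by its probe was not tested. Array medians ran from 8.24 to 8.28. The lowest correlation was 0.994 between arrays of 1 extract and 0.991 between the extracts of 1 parent, and the highest between a 59A and an S288C array was 0.891. All 5 tested a-specific genes were higher in 59A, and of the 2 tested alpha-specific genes STE3 was lower and SAG1 was not called, the directions of the labelled parents' mating types. 15 arrays lacked some values, with 571 missing for segregant 9c and 562 for 13b, and AAD4 and AAD6 had no value in 9c.

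The copies did not share a direction between the parents. AAD3, AAD14 and AAD15 were higher in 59A, AAD4 and AAD10 were higher in S288C, and AAD6 was not called. Calls needed an adjusted p under 0.01 and a log2 difference over 0.7 in size, in a limma fit on the 2 extract means of each parent with Benjamini-Hochberg adjustment over 5969 probes. 5 of the 6 members passed, while 25.2% of all probes passed, 12.8% as higher in 59A and 12.4% as lower. For all 6 members the 6 arrays of 59A did not overlap the 6 of S288C, which held for 62.5% of all probes.

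**Figure D1:**
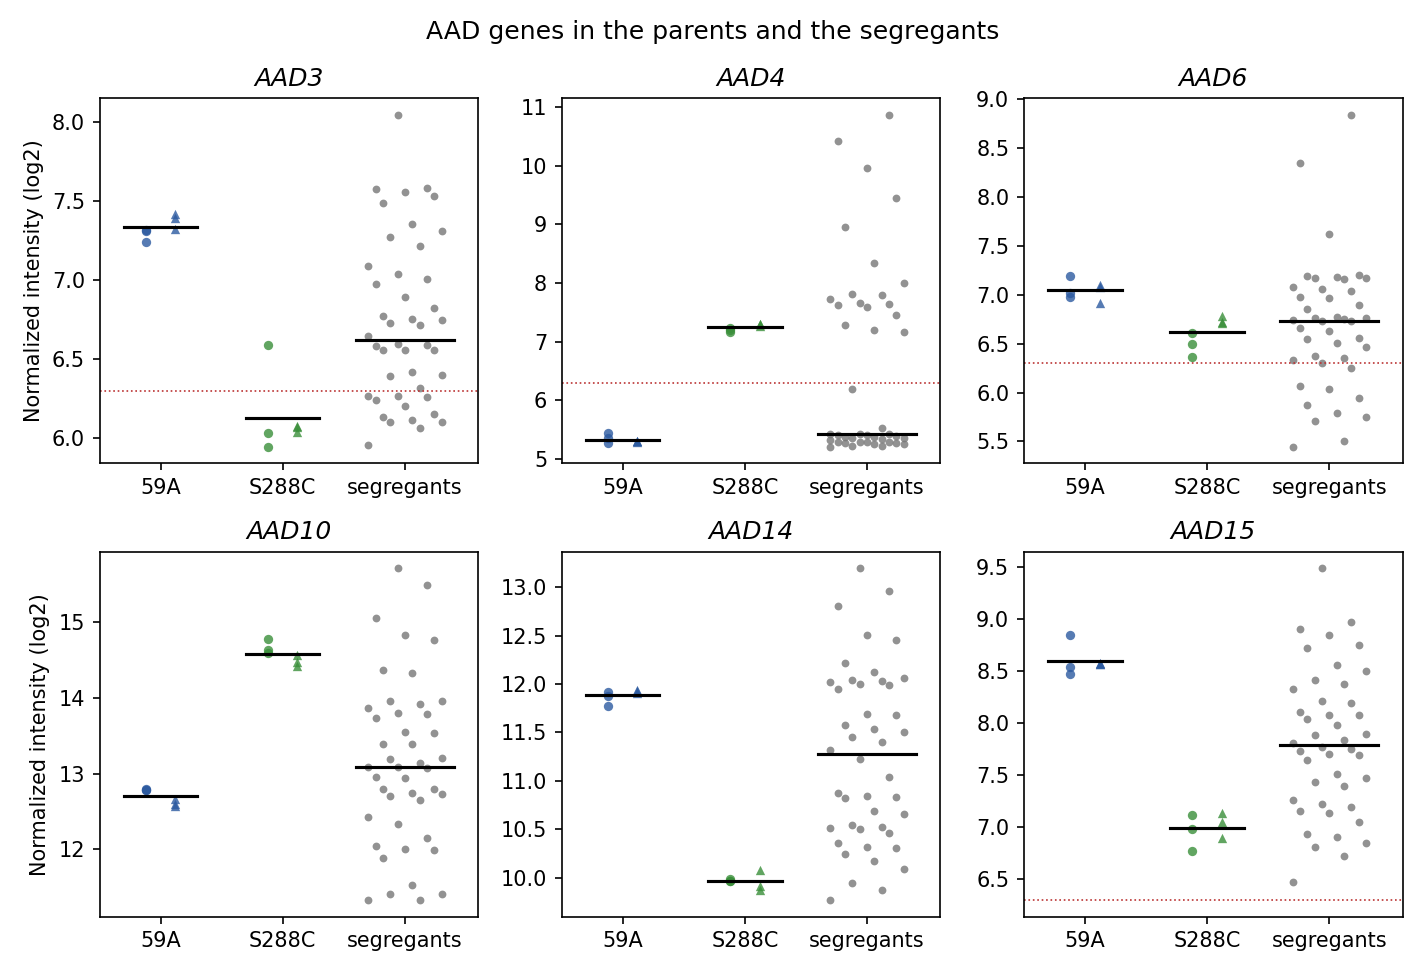
Normalized log2 intensity (vertical axis) of each AAD gene on the 6 arrays of 59A, the 6 of S288C (circles extract 1, triangles extract 2) and in the segregants (grey, 1 array each). Black bars are the mean of the extract means for a parent and the median for the segregants, and the dotted line is 6.3. AAD4 leaves a gap between 6.19 and 7.17, and the other genes spread without one.

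AAD14 was at 11.86 and 11.92 in the extracts of 59A and at 9.97 and 9.95 in those of S288C. Single arrays ran from 11.78 to 11.93 in 59A and from 9.87 to 10.08 in S288C, so each parent varied far less than the parents differed. The difference was 1.93 ± 0.07 (SE, n = 2 extracts for each parent), or 3.80-fold higher in 59A, with an adjusted p of 3.28e-05.

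AAD15 was at 8.62 and 8.57 in the extracts of 59A and at 6.96 and 7.03 in those of S288C. The arrays spanned 8.47 to 8.85 in 59A and 6.77 to 7.14 in S288C. It was 3.03-fold higher in 59A, with a log2 difference of 1.6 ± 0.07 (SE, n = 2 extracts each) and an adjusted p of 5.95e-05 from limma.

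AAD3 was at 7.29 and 7.38 in 59A and at 6.19 and 6.06 in S288C, where 5 of the 6 arrays lay below 6.3. The other S288C array, of extract 1 on slide 2, read 6.59, and the arrays of 59A ran from 7.24 to 7.42. The measured difference was 1.21 ± 0.08 (SE, n = 2 extracts each; adjusted p = 0.000184 from limma). With S288C placed at 6.3 AAD3 was at least 2.05-fold higher in 59A. With all values below 6.3 set to 6.3 the difference was 0.98 and its adjusted p 0.00794.

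AAD10 was at 12.79 and 12.61 in 59A and at 14.67 and 14.49 in S288C. Arrays reached from 12.57 to 12.80 in 59A and from 14.42 to 14.77 in S288C. It was 3.68-fold lower in 59A, with a log2 difference of -1.88 ± 0.10 (SE, n = 2 extracts each) and an adjusted p of 9.94e-05 from limma.

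AAD4 was at 5.35 and 5.3 in 59A, not well above background on any of the 6 arrays, and at 7.20 and 7.29 in S288C, where arrays read 7.17 to 7.31. Its reading was at least 1.92-fold lower in 59A (adjusted p = 4.09e-05 from limma, measured difference -1.92 ± 0.07, SE, n = 2 extracts each). Whether AAD4 is present in 59A and matched by its probe was not tested.

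AAD6, the annotated pseudogene, read 7.06 and 7.03 in 59A and 6.49 and 6.74 in S288C. Its difference of 0.43 ± 0.10 (SE, n = 2 extracts each) had an adjusted p of 0.0141 from limma and missed both limits. The S288C extracts lay farther apart than those of 59A, and within slides 1, 2 and 5, each of which holds an array of both parents, AAD6 differed by 0.52, 0.83 and 0.13.

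Within those same slides the other members kept their directions. AAD14 differed by 1.91, 1.82 and 2.02 and AAD15 by 1.48, 2.07 and 1.51 on slides 1, 2 and 5. AAD10 differed by -1.81, -2.0 and -1.81, and AAD4 by -1.73, -1.84 and -1.97. AAD3 differed by 1.37 and 1.32 on slides 1 and 5 and by 0.65 on slide 2, the slide of the S288C array at 6.59.

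**Figure D2:**
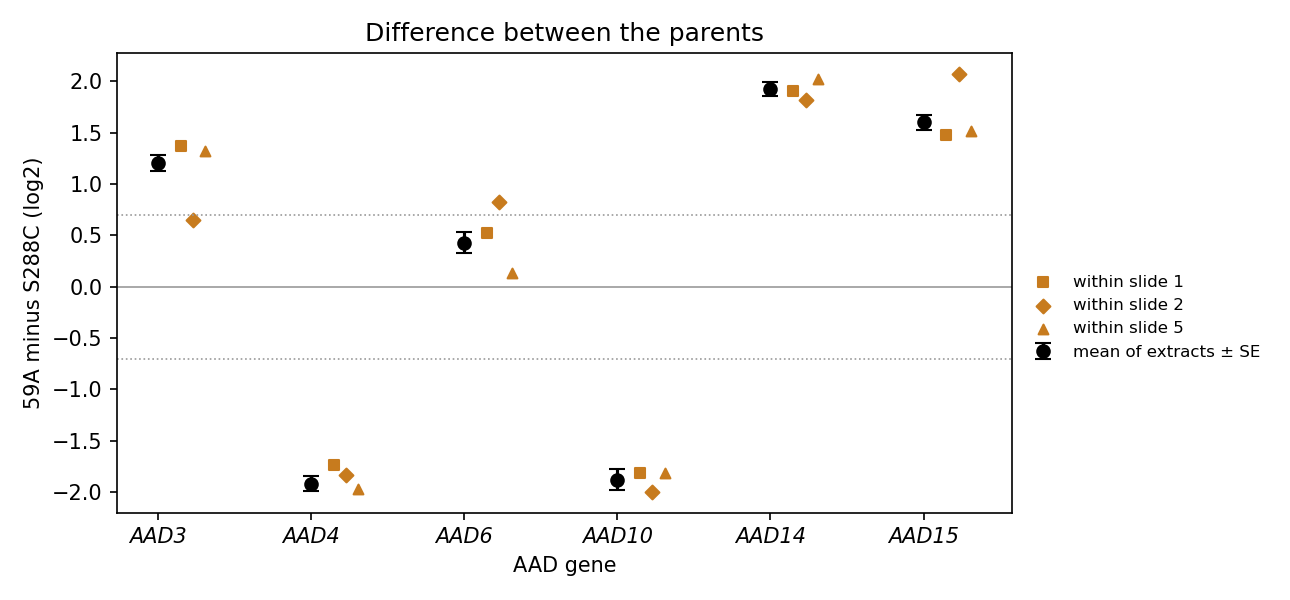
Difference between 59A and S288C in log2 units for each AAD gene: black points are the difference of the extract means with its SE, and orange symbols are the difference within slides 1, 2 and 5. Dotted lines mark 0.7 and -0.7. AAD14, AAD15 and AAD3 lie above 0, AAD10 and AAD4 below it, and AAD6 at 0.43.

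Genes of related chemistry were set beside the AAD copies. Of 11 tested genes for other aldehyde reductases 6 were higher in 59A and none was lower, with a median log2 difference of 0.77 against -0.0067 over all probes. ADH7, an NADPH-dependent alcohol dehydrogenase that lies 2 genes from AAD3, was 8.64-fold higher in 59A (adjusted p = 9.70e-06 from limma). SFA1, which acts on formaldehyde and on long-chain alcohols, was 7.11-fold higher, ADH6, another NADPH-dependent alcohol dehydrogenase, 2.38-fold, and GRE3, the aldose reductase, 1.99-fold. Of 25 tested Ehrlich pathway genes, which include SFA1, 8 were higher and 3 lower. Among them were the acetaldehyde dehydrogenase ALD6 at 8.51-fold, the alcohol dehydrogenase ADH5 at 3.92-fold and the cytosolic branched-chain aminotransferase BAT2 at 3.61-fold, each higher in 59A.

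In the regulons with which some AAD copies are usually grouped the share of calls was near the 25.2% of all probes. Of 20 tested genes of the Yap1 list, which holds the regulator YAP1 and its partner YBP1 beside the targets, 3 were higher and 2 lower in 59A, with a median of -0.04. The quinone reductase LOT6 was 2.45-fold, the NADPH oxidoreductase OYE2 1.92-fold and the cytochrome c peroxidase CCP1 1.90-fold higher, while GSH1, for the first step of glutathione synthesis, was 3.32-fold lower. The other lower gene was YAP1 itself, with a log2 difference of -0.79. Of 14 tested genes listed for the multidrug regulators Yrr1 and Yrm1 none was higher and 4 were lower, with a median of -0.33, among them YLR046C at 3.43-fold, the ABC transporter YOR1 at 2.95-fold and YLR179C at 1.92-fold lower. With values below 6.3 set to 6.3 the 4 became 2, although the parental means of all 4, SNG1 being the other, were 7.92 or more. That setting changes no value above 6.3, but the limma variance estimate and the adjustment draw on all probes. How far these contributed to that loss was not tested.

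Across the segregants the 6 copies covered ranges from 4.26-fold for AAD3 to 50.7-fold for AAD4. The family's spread stood above that of most probes: the median probe had a standard deviation (SD) of 0.35 over the segregants, against 0.52 for AAD3, 0.67 for AAD6, 0.69 for AAD15, 0.90 for AAD14, 1.10 for AAD10 and 1.63 for AAD4. A larger SD was found for 1.02% of the 6245 probes in the case of AAD4, for 3.07% with AAD10, for 5.73% with AAD14 and for 24.9% with AAD3. Broad-sense heritability, the share of the segregant variance above the pooled variance of single parental arrays, was 99.9% for AAD4, 99.5% for AAD14, 98.9% for AAD10, 96.1% for AAD6 and for AAD15, and 89.2% for AAD3, beside a median of 92.4% over all probes. For AAD3 this value was 98.4% with the variance of the 59A arrays alone and 79.9% with that of the S288C arrays alone. The parental arrays are technical ones, 3 for each of 2 extracts, and for AAD4 those of 59A lay near background. The percentages may therefore be too high.

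AAD4 fell into 2 sets of segregants. In 25 of 43 segregants it was below 6.3, with a median of 5.34 and a highest value of 6.19 in 22b, and in the other 18 it ran from 7.17 to 10.87 with a median of 7.76. No segregant lay between. The sets were drawn at 6.3: by the separation of 2-means centres over the SD within them, for which 4 or more is here called 2 ranges, AAD4 reached 3.52, and the other members 3.42 or less. The upper set did not stop at the level of S288C: 19b read 10.87, 10b 10.42, 5c 9.96, 15b 9.45 and 16a 8.96, and 19b was 12.4-fold over the S288C mean of 7.24. Taking values more than 2 SD of single parental arrays beyond the parental mean, 15 of the 18 exceeded S288C and none fell below 59A. That SD was only 0.059 for AAD4 and included the 59A arrays, which lay near background.

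AAD10 reached from 11.32 in 2a to 15.71 in 22b, with a median of 13.08 between the parental means of 12.70 and 14.58. By the same limit 4 segregants lay above S288C and 12 below 59A. AAD14 reached from 9.77 in 9a through a median of 11.27 to 13.19 in 19c, and 10 segregants lay above 59A and 1 below S288C. AAD15 reached from 6.47 in 7c through 7.79 to 9.49 in 19c, with 3 segregants above 59A and 1 below S288C. AAD3 had the same extreme strains as AAD15, 5.96 in 7c and 8.05 in 19c around a median of 6.62, with 1 segregant above 59A, and 12 segregants were below 6.3. AAD6 reached from 5.45 in 16b through 6.73 to 8.84 in 22b, with 3 segregants above 59A, 12 below S288C and 11 below 6.3. The family thus gave 62 values beyond both parents over its 6 genes. The same count was not made over all probes, so it is not read as a trait of the family. Its limit rests on technical arrays of 2 extracts for each parent.

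In the complete tetrads AAD4 was high in 2 spores and below 6.3 in the other 2. In ascus 16 it read 8.96, 7.66, 5.28 and 5.36 in spores a to d, and in ascus 22 it read 5.29, 6.19, 8.00 and 7.29. AAD6 in ascus 16 was low in the spores with high AAD4, at 5.79, 5.45, 7.18 and 7.19. In ascus 22 AAD6 showed no such order, at 6.63, 8.84, 6.77 and 6.3. AAD10 in ascus 22 spread from 11.98 in 22a to 15.71 in 22b, the highest value of the population.

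No member was called off the parental midpoint. In the limma fit over the 5016 probes with a value on all 56 arrays, the segregant mean differed from the midpoint by -0.0047 ± 0.26 for AAD3, -0.49 ± 0.55 for AAD10, 0.33 ± 0.45 for AAD14 and 0.02 ± 0.34 for AAD15 (SE; adjusted p = 0.998 for each). 0 of these 4 passed at an unadjusted p under 0.05, while over the array 7 probes, or 0.14%, were called and 83, or 1.65%, had an unadjusted p under 0.05. Without segregant 9c, a fit chosen after seeing the data, AAD4 was 0.30 ± 0.81 above and AAD6 0.15 ± 0.34 below the midpoint, neither called. These fits took a single spread for parents and segregants, which assumes that they vary alike. For AAD10 the SD was 1.10 over the segregants but 0.12 and 0.13 over the extracts of 59A and S288C. A missing call thus does not place a mean at the midpoint.

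Of the 15 pairs of copies 1 was called correlated over the segregants. AAD3 and AAD15, on chromosomes III and XV, had Pearson's r = 0.92 and Spearman's rho = 0.90 over 44 segregants, each with a permutation p of 1e-05, the smallest that 100000 permutations can give, and adjusted p = 0.0172 for r and 0.0258 for rho. The p-values were adjusted over all 5159 probes with a value in every segregant, and 0.0582% of these were called with AAD3 and the same share with AAD15, which is 3 probes each. Among the 5159 probes AAD15 ranked first for AAD3 and AAD3 ranked first for AAD15. Without 19c and 23b, the segregants farthest from the AAD3 median, r was 0.90. Within slides r was 0.84 or more on 6 of the 7 slides and 0.27 on slide 7, whose 6 segregants spanned only 6.4 to 6.65 in AAD3. With 1 segregant from each of the 26 asci r was 0.89 and the pair was no longer called (adjusted p = 0.0547), since a single probe at the smallest p does not pass over 5469 probes. How far the probe of one copy also detects RNA of another was not tested.

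The remaining partners of these genes were shared too. ADH7, the neighbour of AAD3, followed AAD3 with r = 0.79 and rho = 0.68 and AAD15 with r = 0.75 and rho = 0.65 (adjusted p = 0.0172 for each r, with permutation p = 1e-05), and the other probe called with both carries no gene name. ADH7 spanned 6.13 to 14.27 over the segregants, with 19c at the top, as it was for AAD3 and AAD15. Without the farthest 2 segregants r with ADH7 was 0.75 for AAD3 and 0.70 for AAD15, and with 1 segregant per ascus ADH7 was called with neither (r = 0.68, adjusted p = 0.314 for AAD3; r = 0.62, adjusted p = 0.439 for AAD15). By rho ADH7 was called with AAD3 (adjusted p = 0.0172) but not with AAD15 (adjusted p = 0.0516). RDS1, a transcription factor gene between ADH7 and AAD3, was not called with AAD3 (r = 0.41, adjusted p = 0.999).

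**Figure D3:**
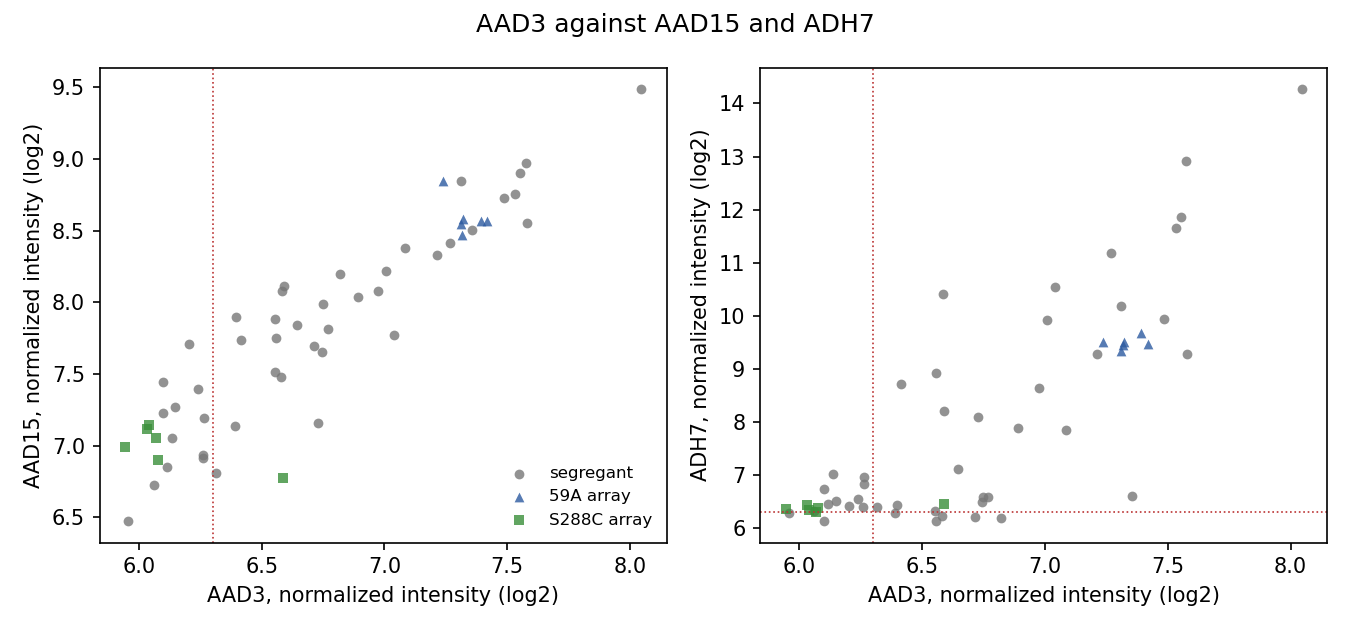
Normalized log2 intensity of AAD15 (left) and ADH7 (right) against AAD3 in the segregants (grey circles) and on the parental arrays of 59A (triangles) and S288C (squares), with dotted lines at 6.3. AAD15 rises along AAD3 over its whole range, and ADH7 stays near 6.3 in many segregants and reaches 14.27 in 19c.

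AAD15 was not called with either named gene tested at its own chromosome end. The unnamed probe called with AAD15 (r = 0.76) and AAD3 (r = 0.80) is numbered directly after the AAD15 probe. Its place in the genome was not examined. BDS1, a sulfatase gene 2 genes away, was not well above background in 59A and at 7.55 in S288C, the direction opposite to AAD15, and was at least 2.37-fold lower in 59A (adjusted p = 1.70e-05 from limma). BDS1 took 2 separate ranges in the segregants, 25 no higher than 5.91 and 19 at 7.32 or more. AAD15 had medians of 7.77 in the 25 and 7.90 in the 19, with overlapping ranges of 6.47 to 9.49 and 6.85 to 8.97. Of the genes next to AAD15, YOL163W divided the segregants into the same numbers.

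The other 14 pairs were not called. For the 9 of them without AAD4, r lay between 0.03 for AAD6 with AAD15 and 0.25 for AAD14 with AAD15, and the adjusted p between 0.587 and 0.999. AAD3 and AAD14 had r = 0.23, AAD10 and AAD15 0.12, AAD10 and AAD14 0.04, AAD3 and AAD10 0.04, and AAD6 and AAD10 0.18. AAD3, AAD14 and AAD15, all higher in 59A, thus held 1 called pair of 3. For AAD4 no pooled r is printed because of its 2 sets. Its calls, here and below, were still made on r over all 43 segregants, across both sets. Among its 18 segregants above 6.3 (a choice made after seeing the data) AAD6 had r = 0.68 and rho = 0.56 with AAD4, with permutation p-values of 0.0021 and 0.016 and an adjusted p of 0.814. Without 19b and 10b, which are high in AAD4, that r was 0.48. The r of AAD4 with the other 4 members in this set lay between 0.0091 for AAD10 and 0.38 for AAD14, and no probe on the array was called there.

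AAD4 had COS7, another gene at the left end of chromosome IV and a member of the DUP380 membrane protein family, as its most alike gene. COS7 took 2 ranges in the segregants, no higher than 5.62 or at least 7.05. All 18 segregants high in AAD4 were in the upper range of COS7 and all 25 low ones in the lower range, 43 of 43 segregants. In the parents COS7 was not well above background in 59A and at 7.72 in S288C, at least 2.68-fold apart. Within the upper range COS7 varied by about 1 unit (7.05 to 8.12) where AAD4 varied from 7.17 to 10.87.

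MPH2, a maltose permease gene 4 genes from AAD4, was called with it (adjusted p = 0.00541), as was MPH3, its near-identical copy on chromosome X, 4 genes from AAD10. Both were not well above background in 59A and read 6.93 and 6.64 in S288C. All 18 segregants high in AAD4 were in the upper of 2 groups of MPH2 from 2-means clustering, at 6.03 or more. That group also held 11 segregants low in AAD4. The lower group reached 5.96, so the split lies below 6.3, where values have no order, and its separation was only 3.40. MPH3 was not called with AAD4 by Spearman's rho (adjusted p = 0.0866) or with values below 6.3 set to 6.3 (adjusted p = 0.343). The sorbitol dehydrogenase gene SOR2, between MPH2 and AAD4, read the other way in the parents, 7.70-fold higher in 59A. Whether its probe and that of SOR1 on chromosome X tell those genes apart was not tested. In total 10 probes, or 0.185% of 5415, were called with AAD4. The other 7 were COS4 and 6 without a gene name. Of the 10 calls 4 were positive, and the rest, COS4 among them, were negative. All 10 calls used the 43 segregants of both sets, and among the 18 above 6.3 no probe was called.

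**Figure D4:**
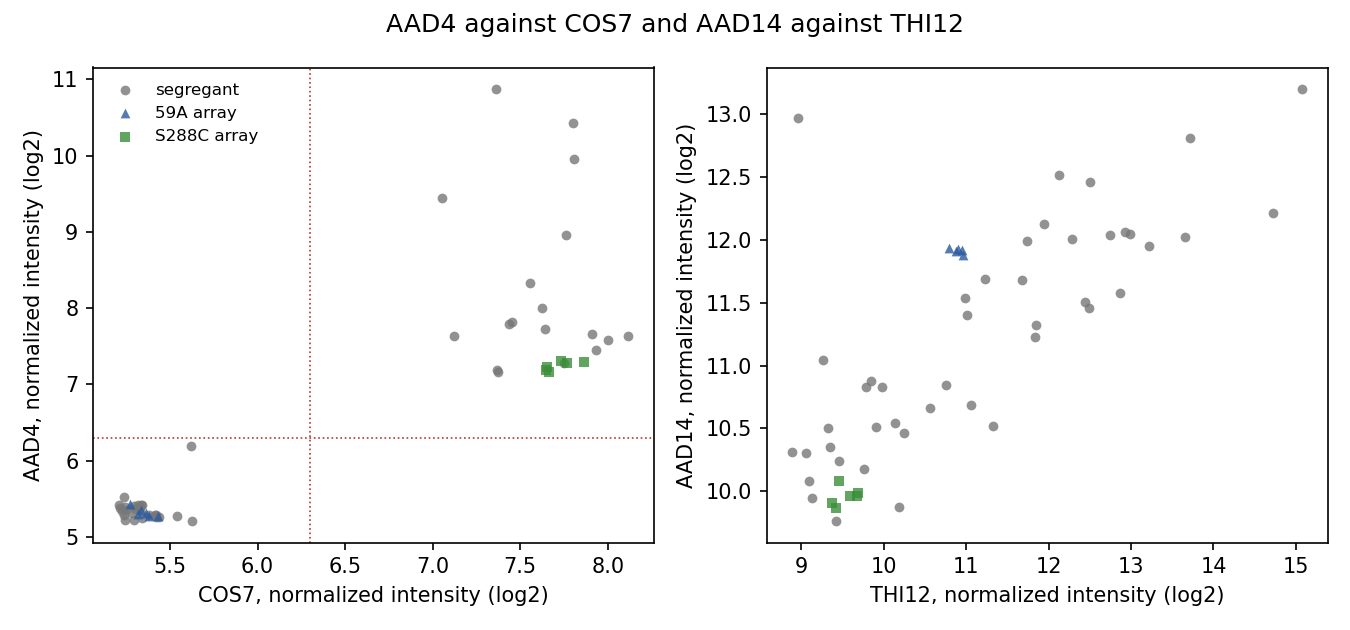
Normalized log2 intensity of AAD4 against COS7 (left) and of AAD14 against THI12 (right) in the segregants (grey circles) and on the arrays of 59A (triangles) and S288C (squares), with dotted lines at 6.3. In the left panel the segregants occupy the lower left and upper right corners only, 25 and 18 of 43, and in the right panel segregant 22b lies apart at 12.96 in AAD14 and 8.95 in THI12.

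AAD14 followed the THI5 family, whose members make the pyrimidine part of thiamine. THI12 is its direct neighbour on chromosome XIV, and over 44 segregants the pair had r = 0.77 and rho = 0.76 (adjusted p = 0.0103; permutation p = 1e-05). THI5 on chromosome VI, THI11 on X and THI13 on IV were as close, with r = 0.77, 0.76 and 0.73, so all 4 of the family were called where 1.22% of 5159 probes were. Whether the 4 THI probes tell those paralogs apart was not tested. The number of probes called with AAD14 was 63, and it was 10 by Spearman's rho, 15 with slide as a block and 12 without 19c and 22b. THI12 spanned 8.89 to 15.07, and 19c held the highest value of both THI12 and AAD14.

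Segregants 19c and 22b were the farthest from the AAD14 median. Without them r with THI12 was 0.87, with THI5 0.88, with THI11 0.87 and with THI13 0.80. Within slides r with THI12 ran from 0.51 to 0.96, and with 1 segregant per ascus it was 0.90 over 26. The fifth gene of AAD14 was YDR541C, a predicted reductase, with r = 0.71 (adjusted p = 0.0103) and 0.83 without 19c and 22b. On the other side of AAD14 the histone deacetylase gene RPD3 had r = -0.02, and the vitamin B6 gene SNZ2, next to THI12, had r = 0.02, neither called.

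No other member was called with a THI5-family gene. With THI13 divided into an upper and a lower group by 2-means clustering, it lay on the same side as AAD4, its neighbour, in 22 of 43 segregants. THI5 beside AAD6 had r = -0.08 with AAD6, and THI11 beside AAD10 had r = -0.18 with AAD10, neither called. In the parents THI11 was 2.88-fold higher in 59A (adjusted p = 0.000335 from limma), the direction of AAD14. It was not called once values below 6.3 were set to 6.3, although it read 9.83 in 59A and 8.31 in S288C. That setting changes no value above 6.3, and why THI11 lost the call was not tested. The difference in r between the members was not tested.

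AAD10 varied with a large part of the array: 35.7% of the 5159 probes were called with it, 18.7% with a positive sign. Its most alike genes were BCD1, needed for box C/D snoRNAs (r = 0.80), HXT5, a hexose transporter of slow-growing cells (r = 0.80), the spore wall gene SPS100 (r = 0.78), the nucleolar ribosome biogenesis gene TMA23 (r = 0.77) and the TFIIIC subunit gene TFC7 (r = 0.76), each with an adjusted p of 0.000186 and a permutation p of 1e-05. All 5 were higher in S288C, as AAD10 was, HXT5 by 29.3-fold and SPS100 by 20.6-fold. HXT5 and AAD10 were both highest in 22b, and r was 0.75 without 22b and 29c. Within slides r with HXT5 ran from 0.60 to 0.96 and rho over all 44 was 0.78. How far the extra copy of part of chromosome XVI in some segregants contributes to the correlations with AAD10 was not tested.

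**Figure D5:**
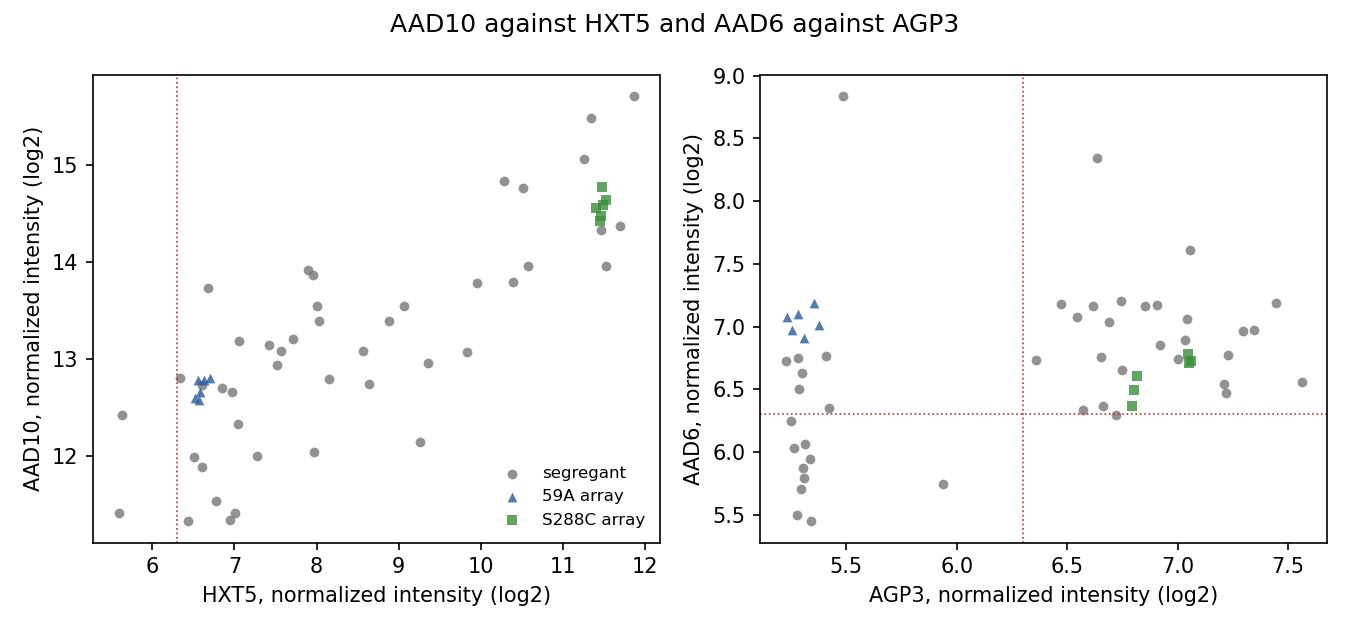
Normalized log2 intensity of AAD10 against HXT5 (left) and of AAD6 against AGP3 (right) in the segregants (grey circles) and on the arrays of 59A (triangles) and S288C (squares), with dotted lines at 6.3. AAD10 rises with HXT5, and AAD6 is lower in most segregants of the lower AGP3 range, with 22b at 8.84 as the main exception.

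Beside so wide a background the lists added little for AAD10. 4 of 11 other aldehyde reductase genes were called with it, YJR096W (r = 0.54) with a positive sign and YPR1 (r = -0.60), ARA1 (r = -0.52) and ADH6 (r = -0.51) with a negative one. Of 16 Yap1 targets 4 were called positive and 3 negative, and of 21 Ehrlich pathway genes 3 positive and 6 negative. Its neighbour YJR154W was called at r = 0.38 (adjusted p = 0.0345), was below 6.3 in both parents, and was not called with values below 6.3 set to 6.3 (r = 0.21). SOR1, 3 genes away, was 8.34-fold higher in 59A, opposite to AAD10, and took 2 ranges in the segregants. AAD10 had medians of 12.80 in the 20 segregants with high SOR1 and 13.29 in the other 24, with overlapping ranges.

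AAD6 had 1.31% of 5415 probes called with it over 43 segregants, 71 probes in number. Its most alike genes were YMR187C (r = 0.71), the sporulation glucanase gene SPR1 (0.70), AIM11 (0.66), YOL024W (0.64) and HRP1, for an RNA cleavage factor (0.63), with adjusted p-values of 0.0090 to 0.016. Without 22b and 19b those r were 0.47, 0.44, 0.43, 0.31 and 0.29, none called. 16 probes were called without these segregants, and 6 by Spearman's rho.

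For several neighbours of AAD6 on chromosome VI r was higher without these segregants. SNO3, a vitamin B6 gene 3 genes away, had r = 0.48 (adjusted p = 0.0621) and rho = 0.61 (adjusted p = 0.0271), and r = 0.75 (adjusted p = 0.0054) without 22b and 19b. SNZ3, another vitamin B6 gene, had r = 0.44 (adjusted p = 0.123), and 0.56 (adjusted p = 0.044) without them. DAK2, a dihydroxyacetone kinase gene, had r = 0.37 (adjusted p = 0.198) and rho = 0.61 (adjusted p = 0.0271), and read 5.36 in 59A and 6.09 in S288C. With values below 6.3 set to 6.3 none of these was called, with r = 0.30 (adjusted p = 0.285) for SNO3, 0.34 (adjusted p = 0.229) for SNZ3 and -0.01 (adjusted p = 0.972) for DAK2. AGP3, the amino acid permease gene next to AAD6, took 2 ranges, 17 segregants no higher than 5.94 and 26 at 6.36 or more. AAD6 had a median of 6.07 in the 17 and 6.93 in the 26, from 5.45 to 8.84 and from 6.3 to 8.35, so the ranges overlapped. Within the upper range r was -0.10. Within the lower it was 0.05, but AGP3 there lay below 6.3, so that r cannot show whether AAD6 follows AGP3. In the parents AGP3 was higher in S288C by at least 1.55-fold, while AAD6 read higher in 59A by 0.43.

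In all, 4 of the 6 members were called with at least 1 gene among the up to 4 named neighbours on each side: AAD3 with ADH7, AAD4 with MPH2, AAD10 with YJR154W and AAD14 with THI12. 29 pairs of a member and a neighbour could be tested. Beside the shares of all probes given above, 1 of 2 tested neighbours was called for AAD3, 1 of 6 for AAD4 and for AAD14, and 1 of 7 for AAD10, which is under its 35.7%. The number of members was 5 by Spearman's rho, 3 with values below 6.3 set to 6.3 and 2 with 1 segregant per ascus. Other aldehyde reductases than ADH7 were not called with AAD3 or AAD15, and GCY1 of that list was called with AAD14 (r = -0.48, adjusted p = 0.0491). No Ehrlich pathway gene was called with a member other than AAD10, and of the Yap1 list GPX2 was called with AAD6 (r = 0.57, adjusted p = 0.0167). No gene of the Yrr1 and Yrm1 list was called with a member other than AAD10, with which 2 of 9 were.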

How the data were processed

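The authors deposited 1 table of log2 spot-median intensity per probe, quantile-normalized with R 2.13.1 and limma (version not given in the sources used here), after scanning with GenePix; scanner files and probe sequences were not used here, and the array's genome build is not given in the sources used here, so no coordinates are printed. Gene names came from the platform annotation: 5197 probes had 1 name, of which 5144 are current RefSeq R64 symbols and 51 were updated, and 1048 had none. Technical arrays were averaged by extract. The labels call the extracts biological replicates without naming separate cultures, so p-values measure the spread between extracts, which may be technical.

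Parents and midpoint were tested with limma 3.58.1 in R 4.3.3. Correlations used 100000 permutations (numpy 2.4.6), with Benjamini-Hochberg adjustment over all probes for each member and a limit of 0.05, and for a pair of members the larger adjusted p. Heritability used the formula that the study gives for phenotypes. Scripts were tested on simulated data. Probes with missing values were left out test by test. Precision is limited by 2 extracts for each parent and 1 array for each segregant.

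The members and gene lists were chosen with earlier results of these data known. Named are all members, up to 4 neighbours on each side, the 5 named genes with the highest r for each member, and up to 4 genes of each list with the smallest adjusted p between the parents; other called genes and partner genes were named after their values were seen. Alternatives were other blocks, background limits, leave-outs, Spearman's rho and 1 segregant per ascus.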

Additional observations from a re-analysis of the deposited data

Results flagged for a closer look

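The 6 arrays of each parent were examined for every member, 12 sets in all, for an array whose gap to the next one took more of the range than Dixon's critical value allows, which chance passes in about 1 set of 20. 3 sets had one, each on slide 2 and from extract 1. AAD3 read 6.59 on the S288C array, where the other 5 ran from 5.95 to 6.08. AAD15 read 8.85 on the 59A array, where the others ran from 8.47 to 8.58. AAD14 read 11.78 on the 59A array, where the others ran from 11.88 to 11.93. Without the S288C array of slide 2, a setting chosen after seeing the data, AAD3 differed by 1.31 between the parents (adjusted p = 0.000106 from limma) and 5 of 6 members were called.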

How the results depend on the processing

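5 of the 6 members were called between the parents in all alternatives run, and no member was called off the midpoint in any. With values below 6.3 set to 6.3, 722 instead of 1503 of 5969 probes were called between the parents, and 21 instead of 32 listed genes. THI11, with means above 6.3 in both parents, was among the genes that lost their call. Values above 6.3 stay the same in that setting, while the limma variance estimate and the adjustment draw on all probes. Their part in the loss was not tested. Leaving out 1 extract gave 5 to 5 members, 31 to 35 listed genes and, off the midpoint, 0 to 0 members. With 1 segregant per ascus, which leaves 26 segregants, 0 pairs of copies were called and 2 members were called with a neighbour, AAD4 and AAD14. Extract numbers are shared by the parents, with a correlation of 0.437 between the deviations of same-numbered extracts, but only 2 pairs exist, so they were not taken as paired. With the replicate block 5 members, 32 listed genes and 1528 probes were called, and no member's call changed. The lower AAD4, AAD3 and AAD6 values lie near background, which limits what their order can show.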
